A study of Taeniopygia guttata with 24 samples.

Results

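The comparison asked whether male and female zebra finches changed their telencephalic gene expression differently between hatching and 65 days post hatch (dph). Of the 24 RNA-seq samples of the series, 18 were used, namely 3 samples of each sex per age of 1, 20 or 65 dph, and the 6 samples of adults were left out. The telencephalon is the forebrain part that holds the bird pallium and striatum. Each sample was a pool of RNA from 3 telencephalons of the same sex and age, so that single birds were not resolved. All birds were bred in an aviary, nestmates were spread over the age groups at random, and the labels name no treatment and no altered allele in any group. For each gene, the interaction was the log2 change of males between 2 ages minus the log2 change of females between the same ages. A positive interaction means that the gene rose more, or fell less, in males.

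In birds, males carry a pair of Z chromosomes and females carry a single Z and a W. Dosage compensation of the avian Z is incomplete and differs from gene to gene, so that many Z genes are transcribed more in male tissue. Young male zebra finches learn a song from a tutor, whereas females do not sing, and the song nuclei of the telencephalon grow large in males during the juvenile weeks. Estrogen made in the brain by aromatase and signaling by the BDNF receptor are known in songbirds for their part in the growth of these nuclei.

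Reads counted on genes ranged from 16680575 to 28772178 per sample (median 23764739), and 3 counts corresponded to 0.104 to 0.180 cpm, the count scaled to the size of the library. A gene was tested when 3 or more of the 18 samples reached 1 cpm, and 13788 of 18618 genes met this. Of these, 633 are named as Z-linked in the study's tables, and the other 13155 were treated as non-Z. A chromosome was known for 3806 tested genes only, so that Z genes missing from those tables may stand among the non-Z genes. Most Z genes came from lists that the study had sorted by the male to female ratio at 1 dph and in adults. These lists hold genes below as well as above the study's cutoff of that ratio. The ratios of 1 dph came from the same samples, so that a male excess here is not independent evidence for the study's result. A symbol was known for 3467 tested genes (25.1%). Correlations of log2 cpm within groups lay between 0.984 and 0.991. The telencephalic genes NEUROD6, TBR1 and EMX2 were read in every group, with a sum of 476 to 1160 cpm per sample. Of 9 listed markers of other brain regions and the pituitary, 3 were tested. Their sum was 128 to 181 cpm per sample at 1 dph, 17 to 22.8 cpm at 20 dph and 13.2 to 17.2 cpm at 65 dph. Whether the tissue content differed between ages was not tested. Markers of microglia and of the choroid plexus were not analysed here. Female sample 3 of 1 dph stood apart in oligodendrocyte genes, with 40.9 cpm of MBP against 14.1 to 18.6 cpm in the other 5 samples of that age. The study's methods call the 3 pools of each sex and age independent. The labels do not say whether birds of different pools were related, and all p-values measure the spread between pools.

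Between 1 and 20 dph, nearly all genes called in both sexes changed in the same direction. In males 8993 genes (65.2% of those tested) changed by the quasi-likelihood F test of edgeR with Benjamini-Hochberg adjustment at 0.05, and in females 9214 (66.8%). Of the tested genes, 32.3% rose and 32.9% fell in males, and 32.3% rose and 34.6% fell in females. Of the 7965 genes called in both sexes, 7962 had the same direction, 3950 of them up and 4012 down. The exceptions were HINT1, ENSTGUG00000008300 and ENSTGUG00000015933, named after their values were seen. ENSTGUG00000015933 met the filter of 1 cpm only through females of 1 dph and males of 20 dph, whose high levels were a condition of testing it. Across all 13788 genes, the male and the female change had a Pearson correlation of 0.944, which describes genes and not independent replicates. The median size of the interaction was 0.15 on the log2 scale, against median changes of 0.50 in males and 0.51 in females.

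From 20 to 65 dph the changes were fewer and smaller. In males 2191 genes (15.9%) changed, and in females 2508 (18.2%). Of the tested genes, 7.46% rose and 8.43% fell in males, and 8.34% rose and 9.85% fell in females. The female count was 1559 without female sample 2 of 20 dph, and the male count was 1343 without male sample 1 of that age. All 1340 genes called in both sexes had the same direction, 604 up and 736 down. The correlation of male and female changes across genes was 0.555, while the median size of the interaction was again 0.15 on the log2 scale. Median changes were 0.17 in males and 0.18 in females at this step.

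**Figure D1:**
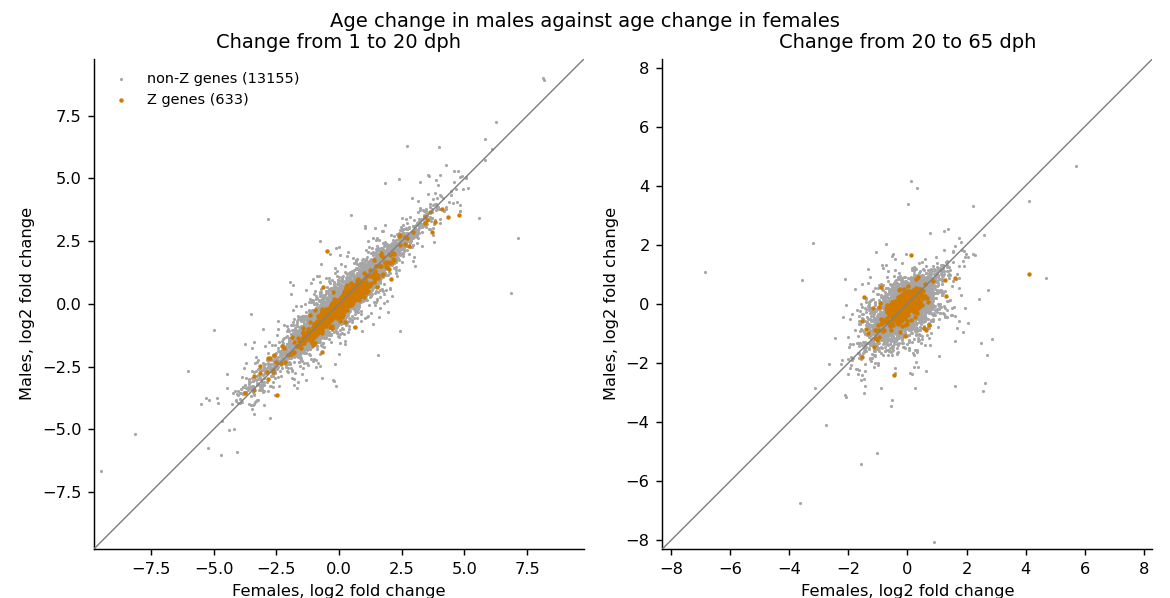
Log2 change of each of the 13788 tested genes in females (horizontal axis) and males (vertical axis), from 1 to 20 dph at left and from 20 to 65 dph at right, with Z genes in orange, non-Z genes in gray and the line of equal change. The cloud follows the line closely at left (Pearson 0.944 across genes) and more loosely at right (0.555), where the changes were smaller.

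At the level of single genes, the interaction of sex and age passed the threshold for no Z gene and for no non-Z gene at either step. For 1 to 20 dph, 0 of 633 Z genes (0%) and 0 of 13155 non-Z genes (0%) were called by the quasi-likelihood test, with 68 Z genes (10.7%) and 870 non-Z genes (6.61%) at an unadjusted p under 0.05. For 20 to 65 dph, 0 Z genes (0%) and 0 non-Z genes (0%) were called, with 46 (7.27%) and 960 (7.30%) at an unadjusted p under 0.05. The smallest adjusted p of the edgeR test was 0.371 at the first step and 0.0962 at the second. Other tools called few genes: DESeq2 called 3 Z and 4 non-Z genes at the first step and 0 and 4 at the second, and the likelihood ratio test of edgeR called 3 and 5, then 0 and 3. Both steps share the samples of 20 dph, so that a low or high value there enters both interactions with opposite signs.

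The precision of the interaction depended on expression. The 95% interval reached a median of 0.36 on the log2 scale to either side of the estimate at both steps. It lay within a log2 change of 1 in either direction for 11218 genes (81.4%) at the first step and 11111 genes (80.6%) at the second. Among genes with a mean of 100 cpm or more, this held for 2194 of 2212 genes (99.2%) at the first step, and among those under 1 cpm for 25 of 658 (3.80%). Interactions of low genes were therefore not detectable at this depth unless they were very large.

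Many genes were called for a step in one sex and not in the other. In none of them did the quasi-likelihood test of edgeR call the difference itself. From 1 to 20 dph, 1028 genes were called in males only and 1249 in females only. Of these, 187 and 217 had an interaction at an unadjusted p under 0.05, and 0 had an adjusted p under 0.05. From 20 to 65 dph, 851 genes were called in males only and 1168 in females only, of which 169 and 278 had an unadjusted p under 0.05 and again 0 passed the adjustment. These are quasi-likelihood counts for genes selected by the step in one sex, a choice that favours a low interaction p. Over all tested genes, 6.8% had an unadjusted p under 0.05 at the first step and 7.3% at the second. No tested gene passed the adjustment at either step, so that the counts of 0 say nothing particular about these genes. NCBP1 was among those called in females only from 1 to 20 dph. Its interaction was called by DESeq2 and by the likelihood ratio test.

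Z genes were higher in males at each age. The sex effect was called for 455 Z genes (71.9%) at 1 dph, 351 (55.5%) at 20 dph and 402 (63.5%) at 65 dph. Of these, 451 were higher in males at 1 dph, then 347 and 399. Among non-Z genes, the sex effect was called for 58 (0.441%) at 1 dph, 32 (0.243%) at 20 dph and 39 (0.296%) at 65 dph. The non-Z counts moved with single samples. At 1 dph, 100 were called without female sample 1, 36 without female sample 2 and 26 without male sample 3. At 20 dph, 19 were called without female sample 2, and at 65 dph 87 without female sample 1. The median male excess over the 633 Z genes was 0.75 on the log2 scale at 1 dph, 0.64 at 20 dph and 0.71 at 65 dph, against -0.03, -0.02 and -0.02 over non-Z genes.

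The number of called Z genes was smaller at 20 dph than at 1 dph, but the quasi-likelihood test of edgeR called no interaction among them. The sex effect was called at 1 and not at 20 dph for 121 Z genes, of which 31 had an interaction at an unadjusted p under 0.05 and 0 were called in edgeR. Of all 633 Z genes, 68 (10.7%) had such a p and 0 were called, so that the 0 is not particular to the 121. Choosing genes called at 1 age only also favours a low interaction p. NCBP1, GDA and HINT1 are among these 121 genes, and their interaction was called by DESeq2, by the likelihood ratio test and with adjustment over Z genes alone. The median sex effect of these 121 genes was 0.69 at 1 dph and 0.40 at 20 dph on the log2 scale, a fall that the choice of the genes favours. Conversely, 17 Z genes were called at 20 and not at 1 dph, with 5 at an unadjusted p under 0.05 and 0 called in edgeR. Between 20 and 65 dph, 29 Z genes were called at the earlier age only and 80 at the later age only, of which 6 and 12 had an interaction at an unadjusted p under 0.05 and 0 were called in edgeR. Of all 633 Z genes, 46 (7.27%) had such a p at this step and 0 were called. DESeq2 and the likelihood ratio test also called 0 Z genes for this step. In all, 315 Z genes and 7 non-Z genes had a called sex effect at all 3 ages, and in none of them was the interaction over both steps called by edgeR, with 20 Z genes at an unadjusted p under 0.05. No chromosome was known for any of the 7, so that Z genes may stand among them. Their median log2 sex effects were 0.90, 0.99 and 0.97 at 1, 20 and 65 dph, beside 0.89, 0.89 and 0.87 for the 315 Z genes. ENSTGUG00000005281 among the 7 was lower in males.

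The sign of the sex effect of Z genes persisted. Of the 455 Z genes called at 1 dph, 448 (98.5%) had the same sign at 20 dph, beside 93.5% of all 633 Z genes, and 453 (99.6%) had it at 65 dph, beside 96.2% of all. Among the exceptions at 20 dph were AUH, MEF2C, APBA1, NCBP1, SERINC5 and MEGF10, named after their values were seen, and none of these was called at 20 dph. Of the 58 non-Z genes called at 1 dph, 38 (65.5%) had the same sign at 20 dph and 43 (74.1%) at 65 dph, beside 46.7% and 57.9% of all non-Z genes. A few Z genes were lower in males, which is the unusual direction for this chromosome. They were KCMF1, HINT1, UBE2R2 and RFX3 at 1 dph, UBE2R2, DCAF12, RFX3 and TNPO1 at 20 dph, and HINT1, UBE2R2 and DCAF12 at 65 dph. The paper names as a limit that its reference genome came from males only, so that W transcripts could not be mapped to W. Whether reads of W copies were counted on these Z genes in females was not tested. UBE2R2, a ubiquitin-conjugating enzyme, was lower in males at all 3 ages, with log2 sex effects of -0.40, -0.42 and -0.34. Its interactions were -0.02 ± 0.09 (SE) and 0.08 ± 0.09 on the log2 scale. In UBE2R2, the male samples lay between 93.0 and 93.1 cpm at 1 dph and the female samples between 120 and 128 cpm, and the 2 sexes did not overlap at 20 or 65 dph either.

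A Z index was computed for each sample as the median over Z genes of log2 cpm, centred for each gene on its mean over the 18 samples, minus the same median over non-Z genes. In females, the 1 dph samples had an index of -0.292, -0.448 and -0.312, the 20 dph samples one of -0.341, -0.338 and -0.304, and the 65 dph samples one of -0.331, -0.404 and -0.432. In males the corresponding values were 0.435, 0.364 and 0.409, then 0.347, 0.301 and 0.325, and finally 0.296, 0.307 and 0.357. All male samples lay above all female samples at every age, and the males of 1 dph lay above those of 20 dph. The male excess of 0.753 at 1 dph (1.69-fold) compared with 0.652 at 20 dph (1.57-fold) and 0.709 at 65 dph (1.63-fold).

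A difference of the sexes in the change of the Z index with age was not shown beyond the spread of the samples. The interaction of the index was -0.101 ± 0.0563 (SE) from 1 to 20 dph, with a two-sided permutation p of 0.0606. The smallest p that the test can give is 0.00216. All p-values of the index, here and below, come from exchanging residuals of a fitted model. They are therefore approximate and may be too small. The interaction was 0.0571 ± 0.0397 from 20 to 65 dph (permutation p = 0.139). From 1 to 65 dph it was -0.0443 ± 0.0641 (permutation p = 0.476). With Benjamini-Hochberg adjustment over these 3 tests, the permutation p-values were 0.182, 0.208 and 0.476. Single samples decided on which side of 0.05 the unadjusted, approximate permutation p lay. For 1 to 20 dph the interaction was -0.140 (permutation p = 0.0128) without female sample 1 of 1 dph. It was -0.126 (permutation p = 0.0396) without female sample 3 and -0.123 (permutation p = 0.0351) without male sample 2 of that age. Without female sample 2 of 1 dph it was -0.0597 (permutation p = 0.0695), and the interaction from 1 to 65 dph was -0.000219 (permutation p = 0.996). For 20 to 65 dph the interaction was 0.0874 (permutation p = 0.00974) without female sample 1 of 65 dph. At the lowest it was 0.0329 (permutation p = 0.346), without male sample 3 of that age.

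**Figure D2:**
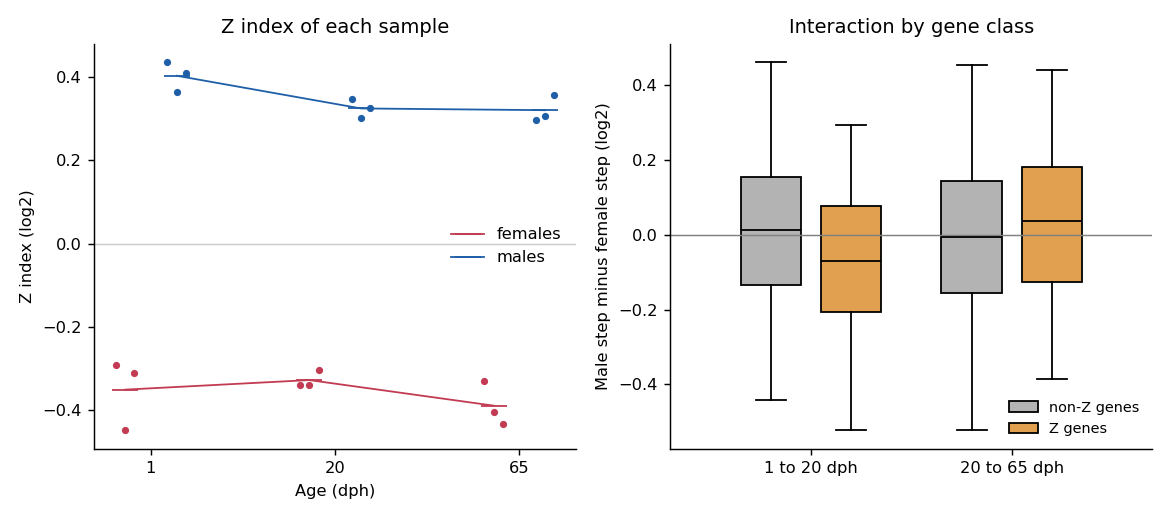
At left, the Z index (log2) of each of the 18 samples by age in dph, with females in red, males in blue and lines through the group means. At right, boxes show the interaction (male step minus female step, log2) of the 633 Z and the 13155 non-Z genes at each step, with whiskers from the 5th to the 95th percentile. The male excess of the index was 0.753, 0.652 and 0.709 at 1, 20 and 65 dph, and the medians of the boxes for Z genes lay at -0.07 and 0.04.

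Over single Z genes the picture was similar in size. The median interaction of Z genes was -0.07 on the log2 scale from 1 to 20 dph, with 38.5% of the genes positive, against 0.01 and 52.4% among non-Z genes. From 20 to 65 dph, the median was 0.04 with 56.9% positive, against 0.00 and 49.0% among non-Z genes. These medians over genes of the same 18 samples are a description and were not tested apart from the index. When the 633 Z genes were ordered by their sex effect at 1 dph and parted into 3 sets of 211, the median sex effects at 1 dph were 0.37, 0.75 and 1.00. The same sets had medians of 0.26, 0.65 and 0.97 at 20 dph, and 0.35, 0.73 and 0.94 at 65 dph. The order of the sets was the same at 20 and 65 dph, ages that were not used to make them. Their median interactions from 20 to 65 dph, again on the log2 scale, were 0.08, 0.04 and -0.04.

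Among Z genes with a symbol, NCBP1, GDA and HINT1 had the lowest p-values for the interaction from 1 to 20 dph, each with an adjusted p of 0.371 in edgeR. NCBP1 encodes the large subunit of the nuclear cap-binding complex. It was read at 45.7, 37.3 and 40.9 cpm in females and at 51.9, 54.8 and 52.9 cpm in males of 1 dph. At 20 dph, the values of NCBP1 were 58.2, 57.6 and 61.4 cpm in females and 54.5, 51.4 and 52.7 cpm in males. At 65 dph they were 56.3, 53.4 and 55.1 cpm in females and 51.9, 52.8 and 52.2 cpm in males. Males thus lay above females at 1 dph and below them at both later ages, without overlap. The log2 sex effect of NCBP1 was 0.36 at 1 dph, where it was called. It was -0.16 at 20 dph and -0.07 at 65 dph, where it was not called (adjusted p of 0.457 and 0.907 in edgeR). How many of all genes lacked overlap was not counted, here or for the other named genes. From 1 to 20 dph, the level of NCBP1 rose in females by 0.51 on the log2 scale, while the male change was -0.01. The interaction of NCBP1 was -0.52 ± 0.10 (SE), with a 95% interval of -0.73 to -0.32, an unadjusted p of 3.6e-05 and an adjusted p of 0.0433 in edgeR without female sample 1 of 1 dph. Without that sample, 1 non-Z gene without a symbol, ENSTGUG00000012740, was also called (adjusted p = 0.0435 in edgeR).

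GDA, the guanine deaminase of purine breakdown, rose steeply in both sexes. Females had 3.41, 3.21 and 3.67 cpm and males 6.84, 6.07 and 6.97 cpm of GDA at 1 dph. At 20 dph, females had 68.1, 75.3 and 67.5 cpm and males 71.1, 61.8 and 86.1 cpm. At 65 dph, females had 62.9, 54.8 and 51.1 cpm and males 76.3, 73.6 and 79.0 cpm. The sexes were apart at 1 and at 65 dph and overlapped at 20 dph. The rise of GDA to 20 dph was 4.35 in females and 3.46 in males on the log2 scale, an interaction of -0.90 ± 0.17 (SE). Its unadjusted p was 5.6e-05, and its adjusted p in edgeR was 0.0324 without male sample 3 of 20 dph, the highest of its group. From 20 to 65 dph, the interaction of GDA was 0.39 ± 0.14.

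HINT1, a histidine triad nucleotide-binding protein, ran against the usual direction of Z genes. Females had 204, 237 and 188 cpm and males 107, 132 and 110 cpm of HINT1 at 1 dph. At 20 dph the values were 196, 159 and 174 cpm in females and 155, 175 and 152 cpm in males. At 65 dph they were 213, 242 and 250 cpm in females and 175, 167 and 161 cpm in males. Females were above males at 1 and 65 dph, and the samples overlapped at 20 dph. HINT1 rose in males by 0.47 and fell in females by 0.25 on the log2 scale between 1 and 20 dph, an interaction of 0.72 ± 0.14 (SE) with an unadjusted p of 8.1e-05. From 20 to 65 dph it rose in females by 0.42, with an interaction of -0.36 ± 0.14. A multicopy relative of HINT1 lies on the W chromosome of the chicken, and the counting could share reads between such copies, so that the levels of this gene are uncertain.

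When p-values were adjusted over the 633 Z genes alone, NCBP1, GDA and HINT1 each had an adjusted p of 0.0170 in edgeR for the interaction from 1 to 20 dph. DESeq2 and the likelihood ratio test called the same 3 Z genes with adjustment over all genes. Over the 28 alternatives, the adjusted p ranged from 0.00134 to 0.880 in NCBP1 and from 0.00588 to 0.880 in HINT1, and the direction of NCBP1, GDA and HINT1 did not turn in any of them. The other Z genes named by p-value at this step had adjusted p-values of 0.654 in edgeR. They were TNPO1, a nuclear import receptor (-0.58 ± 0.15, SE), DCAF12, a substrate receptor of a ubiquitin ligase (-0.50 ± 0.13), and AUH, an enzyme of leucine breakdown in mitochondria (-0.45 ± 0.12). TNPO1 went from a range of 63.5 to 90.6 cpm over both sexes at 1 dph, with overlap, to 61.5 to 63.2 cpm in females and 33.4 to 39.5 cpm in males at 20 dph. DCAF12 rose by 0.56 on the log2 scale in females and had a change of 0.06 in males. AUH rose in both sexes, by 1.17 in females and 0.72 in males, and its sexes differed at 1 dph and overlapped at 20 dph. In 5 of these 6 Z genes the interaction was negative, and HINT1 was the exception. Over all 633 Z genes, 38.5% had a positive interaction at this step, and so few genes picked by p-value show no pattern beyond that.

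**Figure D3:**
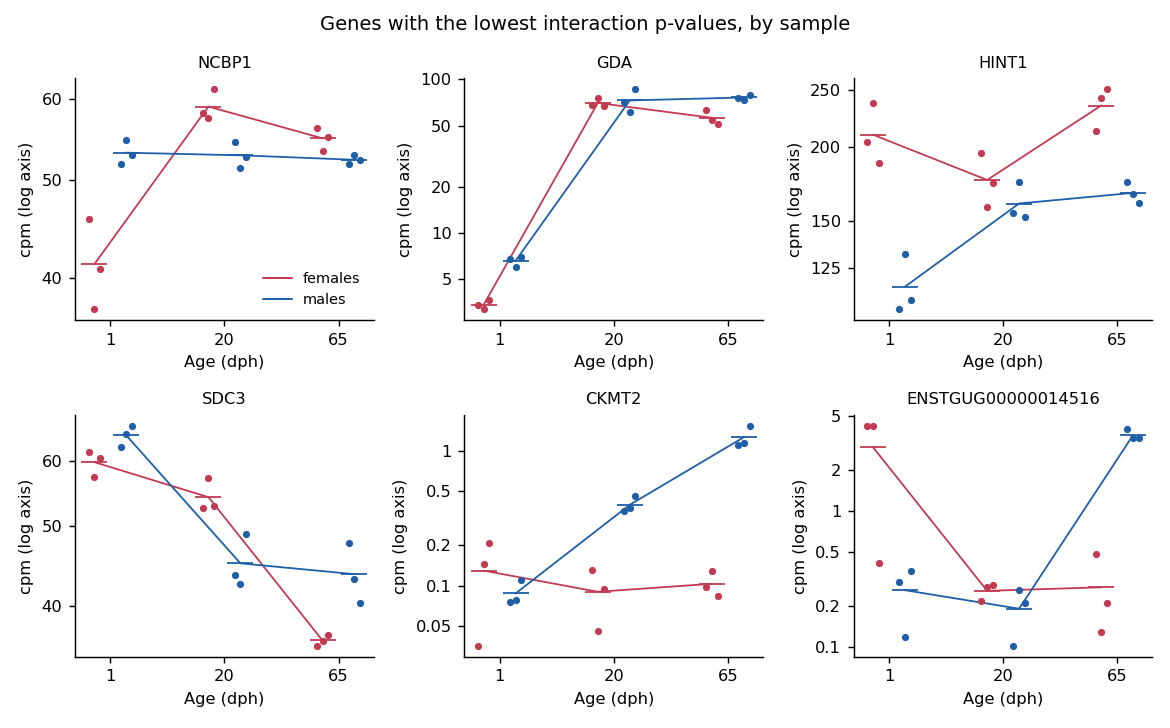
Level of 6 genes in cpm (log axis) in each of the 18 samples by age in dph, with females in red, males in blue and lines through the group means. Males lie above females at 1 dph and below them at 20 dph in NCBP1, the sexes converge at 20 dph in GDA and HINT1, and they cross between 20 and 65 dph in SDC3 (35.8 to 36.9 cpm in females of 65 dph). CKMT2 is highest in males of 65 dph, at a low level (1.10 to 1.52 cpm). ENSTGUG00000014516 is high in males of 65 dph (3.45 to 4.02 cpm) and in some females of 1 dph (0.416 to 4.24 cpm).

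Non-Z genes with a symbol and the lowest p-values from 1 to 20 dph were RASD2, H2AFZ, LOC100220010, SDC3, TMEM35A and TCTEX1D2, all with an adjusted p of 0.654 in edgeR. RASD2, a small G protein of striatal neurons, had an interaction of -0.59 ± 0.14 (SE). It was read at 5.09 to 5.91 cpm in females and 7.62 to 8.58 cpm in males of 1 dph, and at 62.0 to 69.5 and 55.2 to 68.5 cpm at 20 dph, where the sexes overlapped. H2AFZ, the histone variant H2A.Z, had an interaction of 0.44 ± 0.11. Its level was 145 to 173 cpm in females and 131 to 141 cpm in males at 1 dph, and 184 to 225 and 220.5 to 256 cpm at 20 dph. TMEM35A, a chaperone of nicotinic receptors, had 0.55 ± 0.15, LOC100220010 had 0.34 ± 0.09 and TCTEX1D2, a dynein light chain, had 0.37 ± 0.10. In these 3 genes males lay below females at 1 dph.

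SDC3, the heparan sulfate proteoglycan syndecan-3 of neurons, was named at both steps. Its interaction was -0.37 ± 0.10 (SE) from 1 to 20 dph and 0.53 ± 0.10 from 20 to 65 dph, the latter with an unadjusted p of 6.3e-05 and an adjusted p of 0.433 in edgeR. Females had 61.5, 57.3 and 60.5 cpm and males 62.4, 64.7 and 66.1 cpm of SDC3 at 1 dph. At 20 dph females had 52.6, 57.1 and 52.9 cpm and males 43.7, 42.6 and 48.9 cpm. At 65 dph females had 35.8, 36.3 and 36.9 cpm and males 47.7, 43.1 and 40.4 cpm. Males were above females at 1 dph, below them at 20 dph and above them at 65 dph, with no overlap at any age, while the sex effect itself was called at none of them. SDC3 fell in females by 0.58 on the log2 scale from 20 to 65 dph, and the male change was -0.04. DESeq2 called the second interaction of SDC3 with an adjusted p of 0.00349, and the likelihood ratio test with 0.0274.

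The other genes named at the step from 20 to 65 dph had adjusted p-values of 0.671 in edgeR. Among Z genes, they were HMGCS1, an enzyme of cholesterol synthesis (interaction of 0.25 ± 0.08, SE), RIOK2, a kinase of ribosome assembly (-0.31 ± 0.10), PIGG, an enzyme of GPI anchors (0.28 ± 0.09), FAM219A (0.56 ± 0.19), MLLT3, a reader of acylated histones (0.45 ± 0.16), and PDZD2 (0.58 ± 0.21). HMGCS1 fell in both sexes, by 0.86 on the log2 scale in females and by 0.61 in males, and ended at 191 to 197 cpm in females and 280 to 291 cpm in males of 65 dph. PIGG was higher in males throughout, with log2 sex effects of 1.01, 0.86 and 1.14 at 1, 20 and 65 dph. Of the 6 Z genes, 5 had a positive interaction at this step, beside 56.9% of all 633 Z genes, and RIOK2 was the exception. The samples of 20 dph enter both steps with opposite signs, so that the signs at the 2 steps are not independent.

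Among non-Z genes of the second step, PACS2, a sorting protein of the secretory pathway, had an interaction of 0.36 ± 0.09 (SE) and CEND1, a protein of neuronal differentiation, had 0.35 ± 0.10. PRDX3, the mitochondrial peroxiredoxin, had -0.34 ± 0.09, and IRF7, a transcription factor of the interferon response, had -0.87 ± 0.25. IRF7 was read at 8.12, 8.46 and 13.5 cpm in females and 7.33, 7.08 and 5.91 cpm in males of 65 dph. The highest of these values stood apart from its own group. CALCB, a calcitonin gene-related peptide, was near the detection limit after 1 dph. Its counts were 6, 7 and 4 in females and 3, 6 and 5 in males of 20 dph, and 0, 1 and 0 in females and 10, 6 and 6 in males of 65 dph, so that no fold is given.

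Over the whole span from 1 to 65 dph, 1 gene was called. It is ENSTGUG00000014516, a non-Z gene without a symbol, which makes 0.0076% of the non-Z genes, beside 525 at an unadjusted p under 0.05. The joint test of both steps called the same gene and no other (0.0076% of non-Z genes, with 730 at an unadjusted p under 0.05). Its counts were 118, 117 and 12 in females and 8, 3 and 10 in males of 1 dph. At 20 dph, counts of 5, 6 and 6 in females and 2, 7 and 5 in males were found. At 65 dph, females had 10, 2 and 5 counts and males 91, 75 and 64. The gene was thus high in 2 of 3 female samples at hatching and in all 3 male samples of 65 dph, and low in both sexes between. Female sample 3 of 1 dph, with 12 counts, was close to the males of that age, which had at most 10. The interaction of ENSTGUG00000014516 from 1 to 65 dph was 7.13 ± 0.91 (SE) on the log2 scale, with an adjusted p of 0.0045 in edgeR. The fitted value rests on groups with few counts. Only the males of 65 dph and 2 female samples of 1 dph reached the 1 cpm of the filter. These high levels were thus a condition of testing the gene. Without female sample 3 of 1 dph the adjusted p was 5.8e-07, and over the 27 alternatives that tested the gene the log2 interaction lay between 6.77 and 7.79, with an adjusted p between 8.9e-10 and 0.0376.

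The joint test called ENSTGUG00000014516 with an adjusted p of 0.0213 in edgeR, and this call was lost when any of 9 samples was left out. These were female sample 2 and each male sample of 1 dph, female samples 2 and 3 of 65 dph and each male sample of 65 dph. For 1 to 65 dph, 2 non-Z genes were called without female sample 2 of 20 dph, where ENSTGUG00000015159 joined (adjusted p of 0.0328 in edgeR), and without female sample 1 of 65 dph, where ENSTGUG00000004450 joined (adjusted p of 0.0297 in edgeR).

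No Z gene was called over the whole span (0 of 633, 0%, with 51 at an unadjusted p under 0.05) or by the joint test (0%, with 63) in edgeR. DESeq2 called 1 and 3 Z genes in these comparisons, and the likelihood ratio test 1 and 4. CKMT2, the mitochondrial creatine kinase of muscle, was the Z gene with the lowest p for 1 to 65 dph and was named after its values were seen. Females had 1, 4 and 6 counts of CKMT2 at 1 dph, 3, 1 and 2 at 20 dph, and 2, 2 and 2 at 65 dph. Males had 2, 2 and 3 counts at 1 dph, 7, 10 and 11 at 20 dph, and 25, 25 and 28 at 65 dph. All male samples of 20 and 65 dph were above all female samples, and all samples but the males of 65 dph had at most 0.462 cpm. CKMT2 thus met the filter of 1 cpm through the males of 65 dph only, and their high level was a condition of testing it. The fitted interaction of CKMT2 from 1 to 65 dph was 4.11 ± 0.76 (SE) on the log2 scale. That value rests on 6 counts or fewer in each female sample. The adjusted p of CKMT2 was 0.193 in edgeR, 0.0362 without female sample 1 of 1 dph and 0.0266 with adjustment over Z genes alone. SLC26A1, a sulfate transporter on Z, had -1.03 ± 0.25 and an unadjusted p of 0.000601. It was read at 5.87 to 10.4 cpm in females and 16.1 to 20.6 cpm in males of 1 dph, and at 19.6 to 23.8 and 20.1 to 27.0 cpm at 65 dph.

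Other genes without a symbol are given as values. ENSTGUG00000013995 had the lowest p from 20 to 65 dph (interaction of 1.39 ± 0.22, SE, adjusted p of 0.0962 in edgeR). It was read at 6.37, 6.61 and 5.96 cpm in females and 3.87, 3.47 and 3.95 cpm in males of 20 dph, and at 3.21, 3.16 and 2.89 cpm in females and 5.61, 4.46 and 4.29 cpm in males of 65 dph. The sexes exchanged their order between these ages without overlap, and at 1 dph, with 2.74 to 3.64 cpm, they overlapped. ENSTGUG00000015933 had the largest fitted interaction named at the step to 20 dph (6.20 ± 1.28), with 46, 67 and 7 counts in females and 3, 3 and 2 in males of 1 dph, and 3, 4 and 6 in females and 39, 4 and 30 in males of 20 dph. Single samples at 1 and at 20 dph were again far from their groups in this gene. Only females of 1 dph and males of 20 dph held samples that reached the 1 cpm of the filter. High levels in these groups were thus a condition of testing ENSTGUG00000015933, and they also make its interaction positive.

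Of the genes of sex steroid synthesis and steroid receptors, few were measured. Of 22 genes listed, 4 could be matched and were tested, and 0 had a called interaction at either step in edgeR, with 1 at an unadjusted p under 0.05 at each. Over all tested genes, 6.8% had an unadjusted p under 0.05 at the first step and 7.3% at the second, which is the background for such counts in the lists that follow. From 1 to 20 dph, 3 of the 4 genes rose in each sex, beside 32.3% of all tested genes in each. From 20 to 65 dph, 2 rose and 1 fell in females, beside 8.34% and 9.85% of all tested genes. In males 1 rose at that step, beside 7.46%. The symbols came from tables of genes that the study had selected on these samples for changes with age or sex. List members found are therefore not all members, and their age changes are not independent evidence, in this list and in those that follow. The shares of all tested genes that rose or fell were not limited to genes selected so. CYP19A1, the aromatase that makes estrogen, rose from 0.589 to 0.792 cpm over the females and 0.605 to 0.693 cpm over the males of 1 dph to 10.5 to 13.3 and 9.74 to 15.6 cpm at 20 dph. The rise was 4.02 in females and 4.36 in males on the log2 scale, with an interaction of 0.34 ± 0.47 (SE). At 65 dph, females had 19.5, 16.2 and 35.3 cpm and males 19.6, 15.6 and 17.4 cpm, and the interaction of the second step was -0.64 ± 0.32. Female sample 3 of 65 dph was apart from the rest. HSD17B4, a Z gene of peroxisomal steroid and fatty acid oxidation, had log2 sex effects of 0.96, 1.06 and 0.95 and interactions of 0.10 ± 0.09 and -0.11 ± 0.09. NR3C1, the glucocorticoid receptor, rose at both steps in both sexes and had interactions of -0.39 ± 0.15 and 0.31 ± 0.14, each at an unadjusted p under 0.05.

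Immediate early genes, which neurons induce upon activity, rose from 1 to 20 dph in males and females. Of 24 listed genes, 9 were tested, 8 rose from 1 to 20 dph in each sex (32.3% of all tested genes rose in each sex) and 0 had a called interaction, with 0 at an unadjusted p under 0.05 at either step in edgeR. Their median change was 2.59 in females and 2.70 in males on the log2 scale, beside -0.04 and -0.02 over all tested genes. EGR1 was read at 16.2, 25.5 and 19.2 cpm in females and 20.6, 22.2 and 21.4 cpm in males of 1 dph, and at 261, 253 and 228 cpm in females and 292, 274 and 355 cpm in males of 20 dph. Males lay above females at 20 dph without overlap, but at 65 dph the ranges of 312 to 412 and 295 to 412 cpm were alike. The interactions of EGR1 were 0.24 ± 0.21 (SE) and -0.32 ± 0.20. ARC, which acts in synaptic plasticity, had 0.14 ± 0.22 and -0.21 ± 0.20, and FOS, a subunit of the AP-1 transcription factor, had 0.42 ± 0.24 and -0.38 ± 0.21. NR4A2 was the member that did not rise. In the second step, 3 of the 9 genes rose in females and 0 in males (edgeR, with 8.34% and 7.46% of all tested genes), and the median interaction was -0.17 on the log2 scale, beside 0.00 over all tested genes.

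The list of neurotrophins and of receptors for neurotrophins and cytokines holds several Z genes. Of 16 listed, 11 were tested, 7 of them on Z, and 0 had a called interaction, with 0 and 1 at an unadjusted p under 0.05 at the first and second step in edgeR. From 1 to 20 dph, 8 rose and 1 fell in females, and 6 rose and 2 fell in males, where 32.3% of all tested genes rose in each sex and 34.6% fell in females and 32.9% in males. The median interaction was -0.19 at the first step and 0.08 at the second, beside 0.01 and 0.00 over all tested genes. Over all Z genes it was -0.07 and 0.04. NTRK2, the BDNF receptor, had 77.7, 60.3 and 74.5 cpm in females and 110, 96.3 and 102 cpm in males of 1 dph. At 20 dph NTRK2 had 269, 271 and 281 cpm in females and 326, 296 and 367 cpm in males, and at 65 dph 295, 254 and 238 and 383, 384 and 406 cpm. Males were above females at every age without overlap, though the sex effect was called at 1 and 65 dph only. The paper reports NTRK2 as higher in males except in adults, by a stagewise edgeR test with another adjustment. The interactions of NTRK2 were -0.27 ± 0.14 (SE, adjusted p = 0.717) and 0.31 ± 0.13 (adjusted p = 0.671) in edgeR, so that a difference of the sex effect at 20 dph was not shown. LIFR and IL6ST, subunits of receptors for cytokines of the interleukin-6 family, also had called sex effects at 1 and 65 dph only. Their interactions were -0.28 ± 0.21 and -0.34 ± 0.20 at the first step, and 0.39 ± 0.21 and 0.29 ± 0.21 at the second. BDNF itself, which is not on Z, rose by 2.68 in females and 2.70 in males on the log2 scale from 1 to 20 dph, with an interaction of 0.02 ± 0.17.

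GADD45G, a stress-induced Z gene that acts in DNA demethylation, fell steeply in both sexes. Females had 30.7, 29.0 and 25.5 cpm and males 42.0, 40.9 and 37.2 cpm of GADD45G at 1 dph. At 20 dph the values were 7.55, 8.81 and 6.15 cpm in females and 10.7, 9.77 and 9.91 cpm in males. The sexes did not overlap at 1 or 20 dph and overlapped at 65 dph, with 5.78 to 7.91 cpm in females and 7.72 to 8.84 cpm in males. The sex effect was called at 1 dph only, and the interactions were -0.06 ± 0.18 (SE) and -0.20 ± 0.19.

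Genes of myelin and of cell division showed strong age courses, again in the same direction in both sexes. In pooled tissue, fewer cells of a type and less RNA per cell cannot be told apart. The list members were found among genes that the study selected on these samples, as given above, which favours high shares of changed genes. Of 18 listed myelin genes, 9 were tested, and all 9 rose from 1 to 20 dph in each sex, beside 32.3% of all tested genes, with median changes of 1.94 in females and 2.46 in males on the log2 scale. Called interactions numbered 0, with 0 at an unadjusted p under 0.05 at either step in edgeR. MBP, the myelin basic protein, rose by 4.73 in females and 5.31 in males on the log2 scale, an interaction of 0.58 ± 0.35 (SE). Female sample 3 of 1 dph, in which MBP was high as given above, enters these values, and its part in them was not tested. Of 35 listed cell cycle genes, 30 were tested, and all 30 fell from 1 to 20 dph in each sex, beside 34.6% of all tested genes in females and 32.9% in males. From 20 to 65 dph, 18 fell in females and 21 in males, beside 9.85% and 8.43% of all tested genes. Called interactions numbered 0, with 3 and 5 at an unadjusted p under 0.05 at the first and second step in edgeR.

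Among cell cycle genes, TOP2A, the topoisomerase of dividing cells, had 145, 161 and 118 cpm in females and 143, 136 and 110 cpm in males of 1 dph. At 20 dph TOP2A had 9.58, 10.3 and 8.08 cpm in females and 12.9, 9.36 and 11.3 cpm in males, and at 65 dph 4.37, 3.61 and 4.68 and 2.69, 3.81 and 3.69 cpm. The sexes overlapped at all 3 ages. Its interactions were 0.37 ± 0.20 (SE) and -0.59 ± 0.26. RRM2, a subunit of the reductase that makes deoxynucleotides, had 0.49 ± 0.23 and -0.88 ± 0.29. Over the 30 genes, the median interaction was 0.21 at the first step and -0.12 at the second, on the log2 scale.

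DCX and SOX11, markers of immature neurons, fell at both steps in both sexes. DCX was read at 126, 84.1 and 96.3 cpm in females and 138, 102 and 106 cpm in males of 1 dph. At 20 dph DCX had 29.1, 38.1 and 35.2 cpm in females and 26.0, 17.3 and 26.8 cpm in males, and at 65 dph 13.8, 10.8 and 9.96 and 13.8, 11.1 and 13.7 cpm. Males lay below females at 20 dph without overlap, and the sexes overlapped at 1 and 65 dph. The interaction of DCX was -0.72 ± 0.25 (SE, unadjusted p of 0.00904 in edgeR) and then 0.71 ± 0.27 (unadjusted p of 0.0183 in edgeR), neither of them called. SOX11 had -0.25 ± 0.15 and 0.46 ± 0.17. SNAP25, a presynaptic protein of mature neurons, rose in step, by 2.58 in females and 2.67 in males to 20 dph and by 0.74 and 0.72 to 65 dph, with interactions of 0.09 ± 0.12 and -0.02 ± 0.12.

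**Figure D4:**
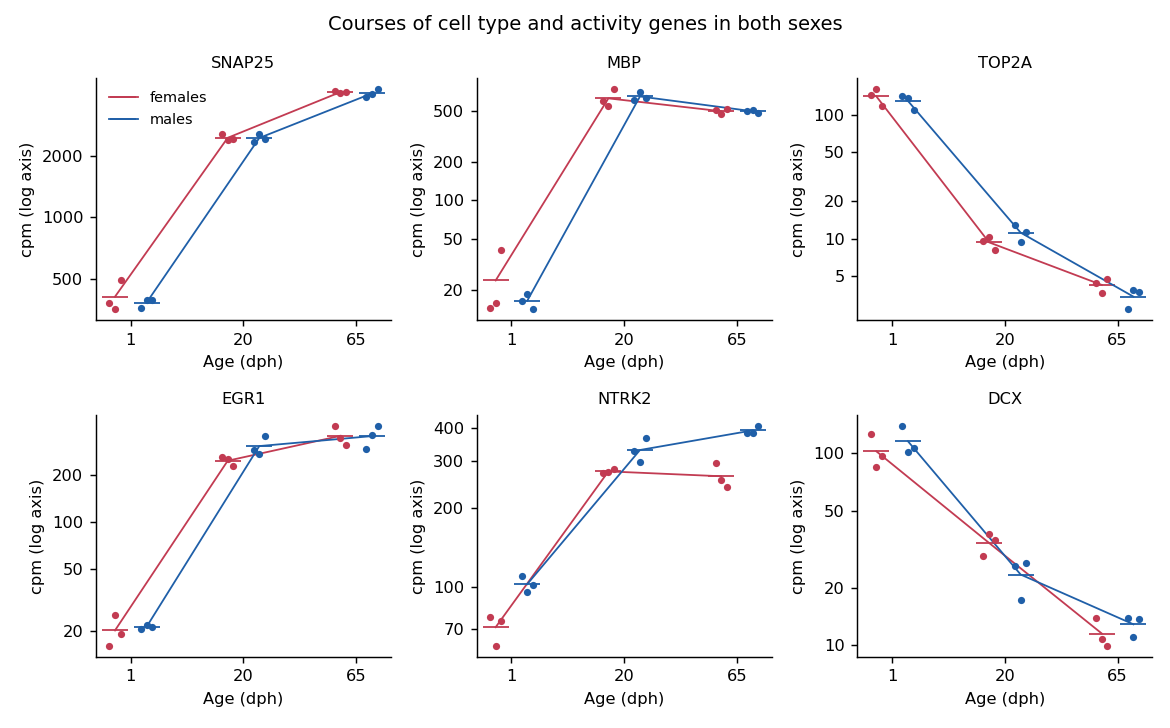
Level in cpm (log axis) of SNAP25, MBP, TOP2A, EGR1, NTRK2 and DCX in each of the 18 samples by age in dph, with females in red, males in blue and lines through the group means. The change from 1 to 20 dph has the same direction in both sexes in each gene. NTRK2 is higher in males at every age, with means that part further at 65 dph, and DCX is lower in males at 20 dph (17.3 to 26.8 cpm against 29.1 to 38.1 cpm).

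The remaining lists held no interaction called by edgeR either. Of 30 listed neuropeptide and receptor genes, 8 were tested, with 0 and 1 at an unadjusted p under 0.05 at the first and second step. That gene was PENK, the enkephalin precursor, with -0.24 ± 0.08 (SE) at the second step. Of 20 listed clock genes, 9 were tested, with 2 and 1 at an unadjusted p under 0.05. RORB, a Z-linked nuclear receptor, rose by 2.08 in females and 0.99 in males to 20 dph on the log2 scale and then fell by 0.96 in females, with a change of -0.11 in males. Its interactions were -1.08 ± 0.37 and 0.85 ± 0.36. RORB was read at 1.01 to 1.65 cpm in females and at up to 2.61 cpm in males of 1 dph, where all males lay above all females, and at 4.90 to 6.47 and 3.02 to 5.90 cpm at 20 dph, where the sexes overlapped. BHLHE40, a repressor within the clock, had -0.43 ± 0.18 at the first step.

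Of 20 listed genes of the respiratory chain, 8 were tested, 5 of them on Z, with 3 and 1 at an unadjusted p under 0.05. The 3 were ATP5F1A and ATP5ME, subunits of ATP synthase on Z, with 0.31 ± 0.10 (SE) and 0.31 ± 0.13, and UQCRC1, a core protein of complex III, with 0.23 ± 0.10. The log2 sex effect of ATP5F1A was 0.30 at 1 dph, 0.61 at 20 dph and 0.47 at 65 dph, and that of ATP5ME was 0.90, 1.21 and 0.96. In these Z genes the estimates at the first step had the sign opposite to the median of all Z genes (-0.07). Of 20 listed stress genes, 10 were tested, with 1 at an unadjusted p under 0.05 at each step. They were TSC22D3, a glucocorticoid-induced gene (0.29 ± 0.12 at the first step), and DDIT4, an inhibitor of mTOR (-0.58 ± 0.27 at the second). Of 26 listed interferon and immune genes, 2 were tested, and both had a negative interaction at an unadjusted p under 0.05 at the second step, of which IRF7 is described above.

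Of the study's genes of epigenetic regulators with a sex effect, 11 were measured and 0 had a called interaction at either step in edgeR. The list was chosen by the study on these samples. The Z genes SETD9 and YTHDC2, a methyltransferase and an RNA helicase that binds methylated adenosine, kept log2 sex effects between 0.94 and 1.08 at the 3 ages. The interactions of SETD9 were 0.06 ± 0.12 (SE) and -0.11 ± 0.12, and those of YTHDC2 were 0.10 ± 0.08 and -0.12 ± 0.08. KDM4C and UHRF2, a histone demethylase and a ubiquitin ligase that binds modified cytosine, had first-step interactions of 0.15 ± 0.20 and -0.13 ± 0.12. SETBP1 had -0.16 ± 0.15 and 0.37 ± 0.16. Among non-Z genes, KDM5B had 0.15 ± 0.09 and 0.10 ± 0.09, SETD4 had 0.28 ± 0.28 and -0.18 ± 0.29, and ARID4A had -0.20 ± 0.16 and 0.39 ± 0.16. ZBTB45 had the largest first-step interaction of the 11 in size, -1.08 ± 0.35 (unadjusted p of 0.00652 in edgeR), at 1.55 to 1.90 cpm in females and 3.01 to 3.21 cpm in males of 1 dph and with overlap at 20 and 65 dph. ZBTB46 had -0.35 ± 0.15 and 0.44 ± 0.15.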

How the data were processed

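RNA of zebra finch telencephalon was sequenced, and the deposited values are counts of reads per Ensembl gene made by the authors before deposit, with 1 column per sample; the submitters' processing notes name FastQC 0.10.1, STAR 2.5.2b, SAMtools 0.1.18 and HTSeq 0.6.0. Per the study's methods, reads were mapped to the Ensembl assembly taeGut3.2.4. Columns were assigned to samples by title, and 0 columns were left unassigned. The 18 samples of 1, 20 and 65 dph were fitted with edgeR 4.0.16 (R 4.3.3, limma 3.58.1) on 6 group means with TMM scaling and the quasi-likelihood F test, after a filter of 1 cpm in 3 samples. The study's methods gave the filter and scaling. Calls and adjusted p-values given as edgeR alone are those of the quasi-likelihood F test. P-values were adjusted by Benjamini-Hochberg over all tested genes at 0.05, Z and non-Z genes were counted apart, and the common coefficient of biological variation was 0.111. Values in cpm are scaled by TMM, whereas the value of 3 counts in cpm refers to library totals. Intervals cover 95%.

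The Z index used Python 3.11.15 and log2 cpm with a prior count of 2. Its permutation test exchanged the residuals of an additive model of sex and age. Such residuals are not freely exchangeable, so that these p-values are approximate. Figures were drawn with matplotlib 3.10.9. Alternatives were other scalings and filters, DESeq2 1.42.0, the likelihood ratio test, robust dispersions, adjustment within Z and non-Z genes, all 24 samples, each sample left out and, added after seeing the data, another dispersion moderation of edgeR. The model was tested on simulated data.

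For each step, Z and non-Z genes apart, the text names called genes with a symbol or, with fewer than 6 called, the next by unadjusted p up to 6, given as values. It also names NTRK2, GADD45G, epigenetic regulators with a sex effect in the study, members of the gene lists, and at most 2 genes without a symbol per direction and step. Symbols and Z linkage came from the study's tables, names only. List examples, CKMT2, SLC26A1 and genes said to be chosen so were named after their values were seen. The comparison, members and lists were chosen with earlier results of these data known.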

Additional observations from a re-analysis of the deposited data

Results flagged for a closer look

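The interaction of ENSTGUG00000014516 from 1 to 65 dph was 7.13 on the log2 scale (edgeR, adjusted p of 0.0045), because the sex effect turned from -3.46 at 1 dph to 3.67 at 65 dph. The males of 65 dph had 64 to 91 counts and the females 2 to 10, while at 1 dph 2 of 3 female samples had 117 and 118 counts and the males 3 to 10. Only the males of 65 dph and these 2 female samples reached the 1 cpm of the filter. Their high levels were thus a condition of testing the gene, and the adjusted p does not allow for this. The gene has no symbol in the tables used, and the cause was not tested.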

How the results depend on the processing

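Counts of called interactions depended on the tool. For 1 to 20 dph, DESeq2 called 3 Z and 4 non-Z genes and the likelihood ratio test 3 and 5, against 0 and 0. For 20 to 65 dph they called 4 and 3 non-Z genes against 0. For 1 to 65 dph, DESeq2 called 1 Z and 3 non-Z genes and the likelihood ratio test 1 and 4, against 0 and 1. For both steps jointly, DESeq2 called 3 and 8 and the likelihood ratio test 4 and 10, against 0 and 1. Adjustment within Z genes gave 3, 1 and 3 Z genes for 1 to 20 dph, 1 to 65 dph and both steps. With 1 cpm required in all 18 samples, 1 non-Z gene (ENSTGUG00000013995) was called for 20 to 65 dph, and 0 for 1 to 65 dph and both steps, since ENSTGUG00000014516 was not tested there. The other dispersion moderation, added after seeing the data, left 0 non-Z genes for both steps. The counts of called interactions stayed within 1.5 times with other scalings, no filter, robust dispersions and all 24 samples, and so did the counts of sex effects and age changes with library totals and all 24 samples, the scaling and sample settings run for them. Library totals shifted the median change of all genes from 1 to 20 dph from -0.02 to -0.28 in males and from -0.04 to -0.27 in females, and no called list member turned its direction. The cause of these differences was not tested apart from the filter.

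With each of the 18 samples left out, called interactions ranged from 0 to 1 (Z) and 0 to 1 (non-Z) for 1 to 20 dph, stayed at 0 for 20 to 65 dph, and ranged from 0 to 1 and 1 to 2 for 1 to 65 dph and 0 to 1 and 0 to 1 for both steps. Non-Z sex effects ranged from 26 to 100 at 1 dph, 19 to 46 at 20 dph and 27 to 87 at 65 dph, and changes from 20 to 65 dph from 1343 to 2526 in males and 1559 to 2785 in females. The Z index interaction ranged from -0.140 to -0.0597 for 1 to 20 dph, from 0.0329 to 0.0874 for 20 to 65 dph and from -0.0809 to -0.000219 for 1 to 65 dph. Of 64 single-gene interactions followed, signs turned in uncalled values only, within ranges of -0.188 to 0.0659 (GADD45G) and -0.0141 to 0.127 (SETD9) for 1 to 20 dph, and -0.319 to 0.0876 (SETD4) and -0.0507 to 0.163 (KDM4C) for 20 to 65 dph. No paired analysis was possible because the pools are numbered 1 to 24 and share no replicate numbers in the labels. Depth and 3 pools per group limit interactions of low genes most.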
